A study of Mus musculus with 12 samples.

Results

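The complement system was read here through 9 genes: C1qa, C1qb and C1qc, which encode the chains of C1q, C2, C3, C4b, the alternative pathway protease Cfb, and the anaphylatoxin receptors C3ar1 and C5ar1. They were chosen by gene symbol, with no threshold on any measured value, and each symbol matched 1 entry of the deposited gene table, so that the members are 9 of 55281 genes. All 9 passed the filter on low counts. Polyadenylated RNA of gonadal white adipose tissue (GWAT) from male mice was measured in 12 libraries, 3 for each of 4 groups formed by genotype and diet. Each library was made from RNA of 3 pooled mice, so that p-values measure the spread between pools and not between animals.

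All 4 groups carried floxed alleles of Hoip (Rnf31), which encodes the catalytic subunit of the linear ubiquitin chain assembly complex. WT denotes Hoip fl/fl mice without AdipoQ.Cre, and HoipA-KO denotes Hoip fl/fl mice with AdipoQ.Cre, a recombinase driven by the adiponectin promoter and therefore active in mature adipocytes. Mice received a control diet (CD, 14% fat) or a high-fat diet (HFD, 60% fat) for 16 weeks from 6 weeks of age, and tissue was taken at 22 to 24 weeks. The comparisons ask how adipocyte loss of HOIP, overfeeding, and their combination alter the tissue. Rnf31 RNA did not separate the genotypes: it lay between 12.6 and 20.7 CPM in WT CD, 17.9 and 19.8 CPM in WT HFD, 17.9 and 21.7 CPM in HoipA-KO CD, and 19.1 and 22.6 CPM in HoipA-KO HFD, so that this whole-tissue measurement does not check the genotype labels.

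Complement is a cascade of plasma and tissue proteins that tags surfaces and dying cells for removal. In the classical pathway C1q binds its target, and the attached proteases cleave C4 and then C2 to build a convertase. In the alternative pathway factor B, cleaved by factor D, forms the convertase with C3b, and both routes meet at C3. Cleavage of C3 and C5 releases the anaphylatoxins C3a and C5a, which act through C3ar1 and C5ar1. In adipose tissue, factor D is the secreted adipocyte protein adipsin, C3 is made by adipocytes and stromal cells among others, and C1q chains and both receptors are well-known transcripts of macrophages and other myeloid cells.

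Levels are given in CPM, counts scaled to a common library total with trimmed-mean factors over 12 libraries, and the total count per library ranged from 30513500 to 60540260. WT CD replicate 3 stood apart from all others: in 3595 genes its level exceeded the next highest library more than 8 times, and these genes held 19.8% of its counts. WT CD replicate 2 had 348 such genes with 6.84% of its counts. Correlation of log2 CPM between replicates was 0.785 to 0.907 in WT CD and 0.971 to 0.993 in the other groups. Tests were therefore made with edgeR's quasi-likelihood test on 11 libraries, without WT CD replicate 3, which the authors' deposited result tables also leave out, and the result with all 12 libraries is given where it changes a call. An adjusted p (Benjamini-Hochberg over all 18427 genes tested) under 0.05 is named a call, and fold changes are on the log2 scale with their standard error (SE).

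The members fell into 3 patterns. The C1q chains, C3 and both receptors were low in WT CD, higher in WT HFD and high in HoipA-KO on either diet. C4b and Cfb had their highest mean level in WT HFD, and C2 overlapped between every pair of groups. The plot of member levels by library shows these patterns.

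**Figure D1:**
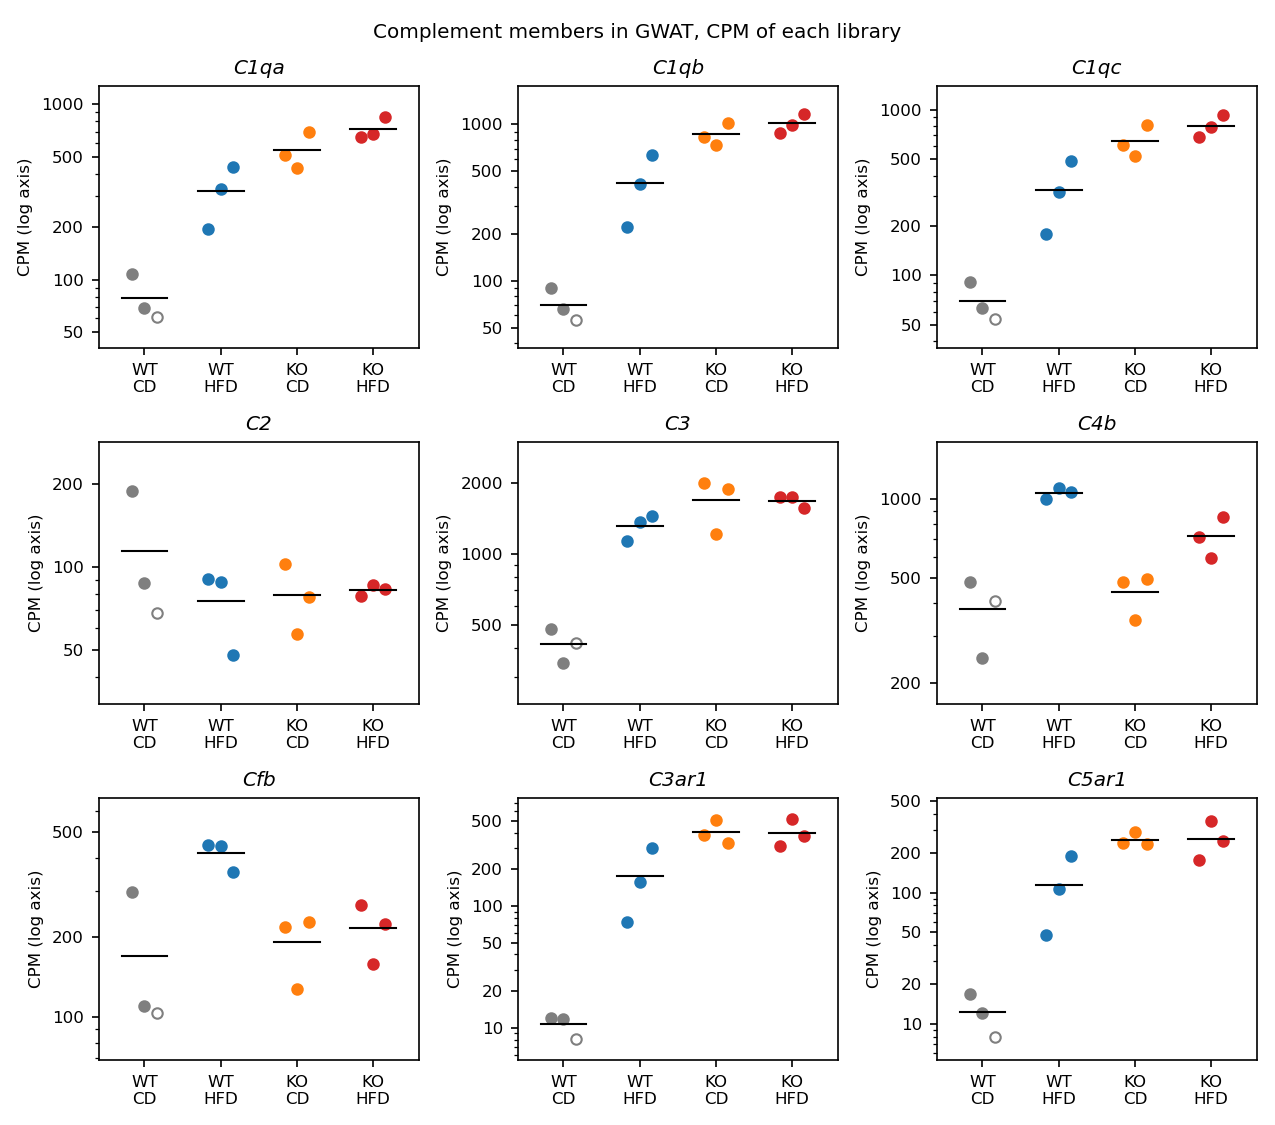
Levels of the 9 members in CPM (log axis) in each of 12 libraries, by genotype and diet group. Points are libraries, each a pool of 3 mice, black lines are group means, and the hollow point is WT CD replicate 3. C3ar1 had the widest range of group means, from 10.7 CPM in WT CD to 408 CPM in HoipA-KO CD (KO in the plot), and C2 was at 75.6 to 115 CPM in all groups.

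The genes of the C1q chains lie side by side on the minus strand of chromosome 4 (GRCm38, GENCODE M21), each with 3 exons: C1qa at chr4:136895917-136898803, C1qc at chr4:136889804-136893065 and C1qb at chr4:136880129-136886187. The gap between C1qa and C1qc is 2851 bp and that between C1qc and C1qb is 3616 bp. Sequence just before the annotated start was at hand for 5 of the 9 members from the RefSeq promoter table on GRCm38.p6. The table held none for C1qa, C2, C4b and Cfb. The pieces for C1qb and C1qc are shown because these neighbours moved together, and bases that M21 places inside the gene are not printed. Both are given 5′ to 3′ on the minus strand, C1qb at chr4:136886201-136886450 and C1qc at chr4:136893066-136893164, and capitals mark GAGGAA, the core bound by the myeloid factor PU.1, or its reverse complement TTCCTC.
C1qb: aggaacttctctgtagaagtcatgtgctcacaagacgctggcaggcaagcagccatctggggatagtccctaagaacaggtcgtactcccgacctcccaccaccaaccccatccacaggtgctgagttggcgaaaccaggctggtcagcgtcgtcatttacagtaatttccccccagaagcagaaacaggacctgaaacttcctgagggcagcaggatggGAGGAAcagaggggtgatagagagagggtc
C1qc: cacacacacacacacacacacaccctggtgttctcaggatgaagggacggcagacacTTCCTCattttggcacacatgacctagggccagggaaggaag
The C1qb match lay 30 to 25 bases before the RefSeq start and the C1qc match 193 to 188 bases before it. GAGGAA was found on either strand in 23.3% of 32851 windows of the same length, and in 2 of the 5 member windows, so that its presence alone does not set these genes apart.

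C1qa was at 107, 68.7 and 61.0 CPM in the WT CD libraries, 195, 330 and 438 CPM in WT HFD, 515, 435 and 700 CPM in HoipA-KO CD, and 655, 679 and 850 CPM in HoipA-KO HFD. C1qb was at 89.4, 66.2 and 55.8 CPM in WT CD, 222, 415 and 633 CPM in WT HFD, 831, 741 and 1023 CPM in HoipA-KO CD, and 882, 998 and 1173 CPM in HoipA-KO HFD. C1qc was at 91.7, 63.9 and 54.8 CPM in WT CD, 179, 320 and 490 CPM in WT HFD, 614, 522 and 802 CPM in HoipA-KO CD, and 679, 779 and 924 CPM in HoipA-KO HFD. For each chain, every WT CD library lay below every library of the other groups. C1qb and C1qc in both HoipA-KO groups lay above all WT HFD libraries, whereas 1 HoipA-KO CD library of C1qa (435 CPM) lay just under the highest WT HFD library (438 CPM). HoipA-KO CD and HoipA-KO HFD overlapped for all 3 chains.

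On CD, the C1q chains rose in HoipA-KO. The difference was 2.65 for C1qa (SE 0.39, edgeR adjusted p = 0.00103), 3.48 for C1qb (SE 0.44, adjusted p = 0.000581) and 3.06 for C1qc (SE 0.43, adjusted p = 0.00091). In CPM, C1qb went from 70.5 ± 17.2 to 865 ± 144 (SD, n = 3 each). With 12 libraries the C1qa difference was 2.80. Over all genes tested on CD, 18.9% were called higher and 18.8% lower in HoipA-KO, so that a call was common in this comparison, and 6 of the 9 members were called, all of them higher.

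In WT mice, HFD raised the same 3 chains: C1qa by 1.87 (SE 0.37, edgeR adjusted p = 0.0127), C1qb by 2.45 (SE 0.41, adjusted p = 0.00748) and C1qc by 2.08 (SE 0.41, adjusted p = 0.0122). This comparison shares the WT CD libraries with that of the genotypes on CD. Here 7 of the 9 members were called higher and none lower, beside 9.35% of all genes higher and 5.47% lower (1723 and 1008 genes, or 2119 and 666 when scaled by library size alone). The 7 were the C1q chains, C3, C4b and both receptors. The count rests in part on WT CD replicate 2: without it 3 members (C1qb, C3 and C3ar1) were called, and without WT CD replicate 1 there were 8, Cfb included.

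On HFD, the genotypes differed less. C1qa was higher by 1.18 (SE 0.32, edgeR adjusted p = 0.0418), C1qb by 1.26 (SE 0.34, adjusted p = 0.042) and C1qc by 1.27 (SE 0.34, adjusted p = 0.0436), and these 3 chains were the members called, beside 4.2% of all genes called higher and 7.62% lower (774 and 1405 genes, or 1274 and 1131 when scaled by library size alone). With 12 libraries the fold change of each chain moved by less than 0.01, but the adjusted p rose to 0.0767 for C1qa, 0.0747 for C1qb and 0.0767 for C1qc, no member passed, and 0.598% of genes were called higher. At an unadjusted p under 0.05, 6 members differed in the fit of 11 libraries, as did 5812 of all 18427 genes. These HFD calls therefore sit at the edge of the threshold, and they were also lost when any HoipA-KO HFD library, WT HFD replicate 1 or 2, or HoipA-KO CD replicate 1 or 2 was left out, while the fold change of C1qb stayed between 0.96 and 1.69. Without HoipA-KO CD replicate 3 only C1qa was called, and without WT HFD replicate 3 there were 5 members.

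The chains did not keep a fixed ratio to each other. On the log2 scale the C1qa level minus the C1qb level was 0.15 ± 0.10 on CD and -0.35 ± 0.17 on HFD in WT, and -0.67 ± 0.11 on CD and -0.48 ± 0.07 on HFD in HoipA-KO (SD, n = 3 each), a description with no test. Per kilobase of transcript, the level of C1qb was 64.8 ± 15.8 CPM in WT CD, below the 75.8 ± 23.7 CPM of C1qa within their spread. In HoipA-KO HFD, the level per kilobase was 935 ± 135 CPM for C1qb against 700 ± 102 CPM for C1qa and 660 ± 102 CPM for C1qc. C1q protein is assembled from all 3 chains in equal number, and the RNA of the chains was not in one proportion across the groups.

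C1q chains, C3ar1 and C5ar1 are myeloid transcripts, and the macrophage marker list moved with them. The summed level of its 8 genes was 397 to 596 CPM in WT CD, 1606 to 4667 CPM in WT HFD, 7846 to 11416 CPM in HoipA-KO CD and 5622 to 9636 CPM in HoipA-KO HFD. Lyz2 alone made up 5061 to 7756 CPM of the HoipA-KO CD sums. The mean log2(CPM + 1) of the list was 5.08, 7.32, 8.09 and 8.18 in the same order of groups. On CD 6 of the 8 rose, the hemoglobin scavenger receptor Cd163 fell by 2.37, and the efferocytosis receptor Mertk was not called. Between the genotypes on HFD, 2 of the 8 were called higher and 1 lower, or 0 and 1 with 12 libraries. In bulk tissue, more cells of a type and more RNA per cell cannot be told apart. On the log2 scale, the mean of the C1q chains minus that of the macrophage list was 1.08 ± 0.14 on CD and 1.04 ± 0.05 on HFD in WT, and 1.29 ± 0.52 on CD and 1.52 ± 0.29 on HFD in HoipA-KO. With diet in WT, C1q RNA thus moved by about as much as the mean of these markers. On CD the genotypes overlapped in this value. On HFD it was 0.98 to 1.07 in the WT libraries and 1.19 to 1.75 in those of HoipA-KO, a description with no test. Against single markers the picture varied: relative to Csf1r, the receptor for macrophage colony-stimulating factor, the C1q mean was 0.22, 0.06, -0.15 and 0.28 in the same order of groups, and relative to Adgre1 (F4/80) it was 2.20, 0.46, 0.48 and 0.60. The part of cell number in the C1q result was not tested. The adipocyte list moved the other way, with 7 of 8 genes lower in HoipA-KO on CD and 8 of 8 lower on HFD (6 of 8 and 5 of 8 with 12 libraries), and its summed level was 10955 to 37571 CPM in WT CD, 21016 to 27517 CPM in WT HFD, 6243 to 8931 CPM in HoipA-KO CD and 5517 to 7856 CPM in HoipA-KO HFD. Beside these marker counts, 18.9% of all genes were called higher and 18.8% lower on CD, and 4.2% and 7.62% on HFD. With 12 libraries the shares were 16.3% and 18.3% on CD, and 0.598% and 2.3% on HFD.

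**Figure D2:**
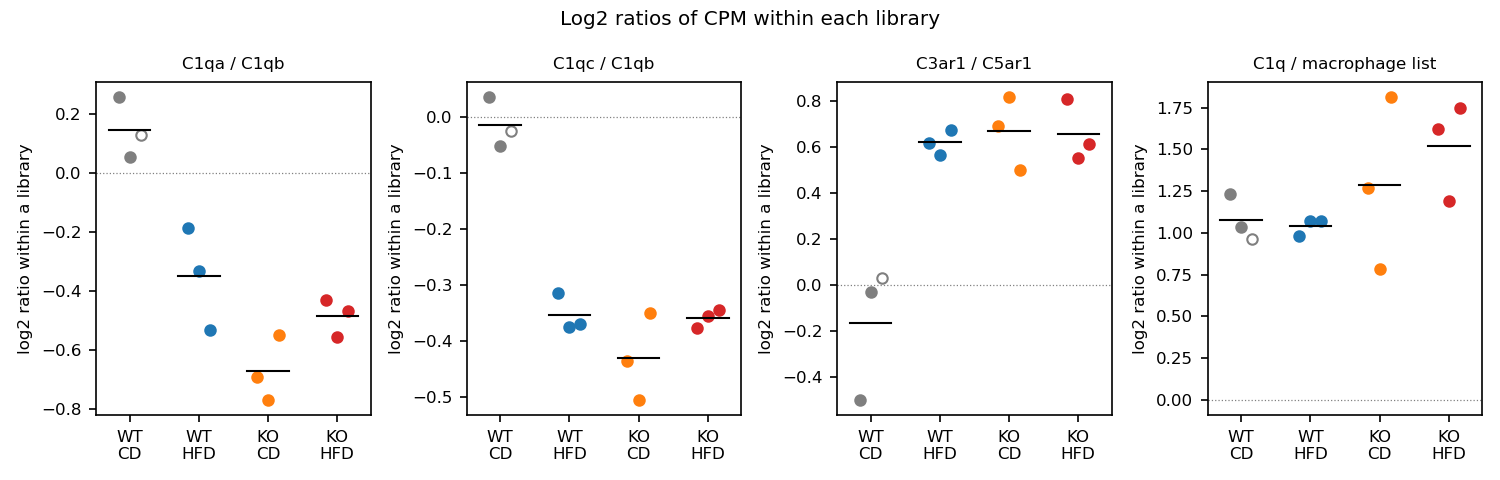
Log2 ratios between members, and between members and reference genes, in each of 12 libraries by group. Points are libraries, black lines are group means, and the hollow point is WT CD replicate 3. The C1qa to C1qb ratio went from 0.15 in WT CD to -0.67 in HoipA-KO CD, and the C3ar1 to C5ar1 ratio from -0.17 in WT CD to 0.62 to 0.67 in the other groups.

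C4b and C2, which are cleaved after C1q binds its target, did not follow the C1q chains. Both lie on chromosome 17 in the major histocompatibility complex on the minus strand, C4b at chr17:34728380-34743882 with 41 exons and C2 at chr17:34862604-34898265 with 18 exons. C4b was at 482, 249 and 407 CPM in WT CD, 995, 1092 and 1059 CPM in WT HFD, 480, 347 and 497 CPM in HoipA-KO CD, and 713, 596 and 854 CPM in HoipA-KO HFD. The WT HFD libraries lay above all others and close to each other. C4b shares sequence with its paralog C4a and its counts were not whole numbers, so that the split between the paralogs is uncertain, although C4a was at 0.2 to 3.1 CPM.

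HFD raised C4b in WT by 1.52 (SE 0.31, edgeR adjusted p = 0.0131), while the genotypes did not differ past the threshold on CD (0.27, 95% interval -0.38 to 0.93, adjusted p = 0.482) or HFD (-0.54, interval -1.12 to 0.04, adjusted p = 0.185). In the comparison of HoipA-KO CD with WT HFD, C4b was the 1 member called, lower in HoipA-KO CD (-1.25, SE 0.26, adjusted p = 0.017, and 0.0342 with 12 libraries). Of all genes, 6.78% were called higher and 9.07% lower in that comparison. The call was lost without WT HFD replicate 1, WT HFD replicate 2 or HoipA-KO CD replicate 2, while 2 members were called without WT CD replicate 1 or 2 and 6 without WT HFD replicate 3. C4b was also the only member whose HoipA-KO CD and HoipA-KO HFD libraries did not overlap (0.71 higher on HFD, interval 0.12 to 1.29, adjusted p = 1).

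C2, the protease component of the classical convertase, was at 188, 87.6 and 67.9 CPM in WT CD, 90.3, 88.4 and 48.0 CPM in WT HFD, 102, 57.4 and 78.0 CPM in HoipA-KO CD, and 78.7, 86.0 and 83.3 CPM in HoipA-KO HFD. No comparison of the fit called it, and it was called lower in HoipA-KO on CD when WT CD replicate 2 was left out, which leaves replicate 1 as the lone WT CD library, assumed to vary like the other groups. WT CD replicate 1 held its highest level, and the other WT CD libraries lay within the range of the remaining groups. The genotype difference was -0.80 on CD (95% interval -1.61 to 0.01, edgeR adjusted p = 0.109) and 0.13 on HFD (interval -0.61 to 0.87, adjusted p = 0.807). The zinc finger gene Zbtb12, on the opposite strand within C2, had 113 to 330 counts per library, and the readthrough gene Gm20547, which spans C2 and Cfb on the same strand, had 0 to 72. Whether the counting used the strand is not given in the sources used here.

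Cfb, the alternative pathway protease, starts 85 bp beyond C2 at chr17:34856374-34862518, with 18 exons on the minus strand. It was at 297, 110 and 103 CPM in WT CD, 448, 443 and 354 CPM in WT HFD, 218, 128 and 228 CPM in HoipA-KO CD, and 266, 158 and 225 CPM in HoipA-KO HFD. Every WT HFD library lay above every library of the other 3 groups, which overlapped among themselves. No comparison of Cfb passed the threshold in the edgeR fit of 11 libraries described above. The WT diet difference was 1.03 (SE 0.42, edgeR adjusted p = 0.123), the genotype difference on HFD was -0.94 (SE 0.37, adjusted p = 0.115), and that on CD was -0.09 (adjusted p = 0.882) with 11 libraries and 0.17 with 12, so that it has no stable sign. Between HoipA-KO CD and WT HFD the difference was -1.12 (SE 0.37, adjusted p = 0.0657), and Cfb was called lower in HoipA-KO CD with DESeq2, with the replicate number as a block, with a minimum of 10 counts and with only these 2 groups fitted. On HFD it was called lower with DESeq2 and with only the 2 groups fitted. Leaving out WT CD replicate 1 or replicate 2 added Cfb, lower in HoipA-KO, to the members called on HFD.

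C3, the protein on which all pathways meet, lies at chr17:57203970-57228136 on the minus strand with 41 exons. The 250 bases before its annotated start (chr17:57228137-57228386, GRCm38.p6, minus strand, 5′ to 3′) held none of the 5 motifs searched, and no base is therefore in capitals. They are shown because C3 moved with the myeloid members on CD.
C3: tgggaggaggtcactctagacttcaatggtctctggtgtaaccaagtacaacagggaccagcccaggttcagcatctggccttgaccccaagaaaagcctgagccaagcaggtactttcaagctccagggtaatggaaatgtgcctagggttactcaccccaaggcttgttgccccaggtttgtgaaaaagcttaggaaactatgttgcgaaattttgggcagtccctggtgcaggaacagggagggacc
The motifs were GAGGAA, GGGNNTTCC for NF-kappaB, GAAANNGAA for the interferon-stimulated response element, TTCNNNGAA for STAT factors and TGACTCA for AP-1, each on both strands. GGGNNTTCC occurred in 4.98% of all windows, GAAANNGAA in 7.13%, TTCNNNGAA in 7.02% and TGACTCA in 4.46%, and GGGNNTTCC and TTCNNNGAA in no member window.

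C3 was at 482, 346 and 418 CPM in WT CD, 1140, 1361 and 1443 CPM in WT HFD, 1991, 1216 and 1884 CPM in HoipA-KO CD, and 1745, 1737 and 1568 CPM in HoipA-KO HFD. The group means were 415 ± 67.9, 1314 ± 157, 1697 ± 420.0 and 1683 ± 100.0 CPM (SD, n = 3). All WT CD libraries lay below all others, HoipA-KO HFD lay above WT HFD without overlap, and HoipA-KO CD overlapped both. C3 was higher in HoipA-KO on CD by 2.04 (SE 0.27, edgeR adjusted p = 0.000761) and higher on HFD in WT by 1.67 (SE 0.27, adjusted p = 0.00695). On HFD the genotypes differed by 0.36 (95% interval -0.15 to 0.86, adjusted p = 0.307), and within HoipA-KO the diets differed by -0.01 (interval -0.52 to 0.50).

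Per kilobase of transcript, the level of C3 was 80.9 CPM in WT CD, near that of C1qa (75.8 CPM) and C4b (70.5 CPM). In HoipA-KO CD the level of C3 was 330 CPM per kilobase, below C1qb at 795 CPM and above C4b at 82.0 CPM. Among the members, C3 had the highest mean level per kilobase in WT CD, within the spread of C1qa, and C1qb had the highest in each of the other 3 groups. Cfb stood at 61.8 CPM per kilobase on CD and 151 on HFD in WT, and 69.5 on CD and 78.6 on HFD in HoipA-KO.

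The anaphylatoxin receptors showed the widest range. C3ar1 lies at chr6:122847138-122856161 and C5ar1 at chr7:16246743-16259540, each with 2 exons on the minus strand. The sequence from 250 to 5 bases before the RefSeq start of C3ar1 (chr6:122856162-122856407, GRCm38.p6, minus strand, 5′ to 3′) is shown because C3ar1 had the largest fold change of the members, and capitals mark TGACTCA, the AP-1 motif, 22 to 16 bases before the start.
C3ar1: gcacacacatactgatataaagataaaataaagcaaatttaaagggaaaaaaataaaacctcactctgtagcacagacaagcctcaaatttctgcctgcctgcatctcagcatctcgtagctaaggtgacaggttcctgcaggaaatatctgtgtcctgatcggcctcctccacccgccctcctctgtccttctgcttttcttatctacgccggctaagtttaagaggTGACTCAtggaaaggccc
No other member window held TGACTCA. The C5ar1 window held GAAANNGAA on the opposite strand 66 to 58 bases before the start, in bases that M21 places inside the gene. These matches describe letters and not binding.

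C3ar1 was at 12.004, 11.8 and 8.14 CPM in WT CD, 73.3, 158 and 302 CPM in WT HFD, 383, 510 and 330 CPM in HoipA-KO CD, and 313, 514 and 376 CPM in HoipA-KO HFD. C5ar1 was at 16.9, 12.1 and 7.96 CPM in WT CD, 47.8, 107 and 189 CPM in WT HFD, 237, 289 and 234 CPM in HoipA-KO CD, and 178, 351 and 246 CPM in HoipA-KO HFD. For both receptors the 3 groups other than WT CD lay above it, and the 2 HoipA-KO groups overlapped. C3ar1 in either HoipA-KO group was above all WT HFD libraries, whereas C5ar1 in HoipA-KO HFD had 1 library (178 CPM) under the highest of WT HFD (189 CPM). The WT HFD libraries were spread widely for these myeloid genes, with replicate 1 lowest and replicate 3 highest for C1q chains and receptors alike.

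C3ar1 rose in HoipA-KO on CD by 5.10 (SE 0.61, edgeR adjusted p = 0.000519) and C5ar1 by 4.13 (SE 0.58, adjusted p = 0.000876). HFD in WT raised C3ar1 by 3.90 (SE 0.57, adjusted p = 0.00617) and C5ar1 by 2.98 (SE 0.54, adjusted p = 0.0094). On HFD, the difference between genotypes was 1.17 for each receptor and missed the threshold (C3ar1 95% interval 0.21 to 2.14, adjusted p = 0.0993, and C5ar1 adjusted p = 0.1). The C3ar1 level minus the C5ar1 level on the log2 scale was -0.17 ± 0.29 on CD and 0.62 ± 0.05 on HFD in WT, and 0.67 ± 0.16 on CD and 0.66 ± 0.14 on HFD in HoipA-KO (SD, n = 3). The ratio thus shifted toward C3ar1 in all groups but WT CD. These values are not scaled by transcript length. Per kilobase of transcript, C5ar1 had the higher mean in every group, at 4.85 against 2.48 CPM in WT CD. In HoipA-KO CD it was 99.8 ± 12.3 against 94.7 ± 21.5 CPM, within their spread.

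**Figure D3:**
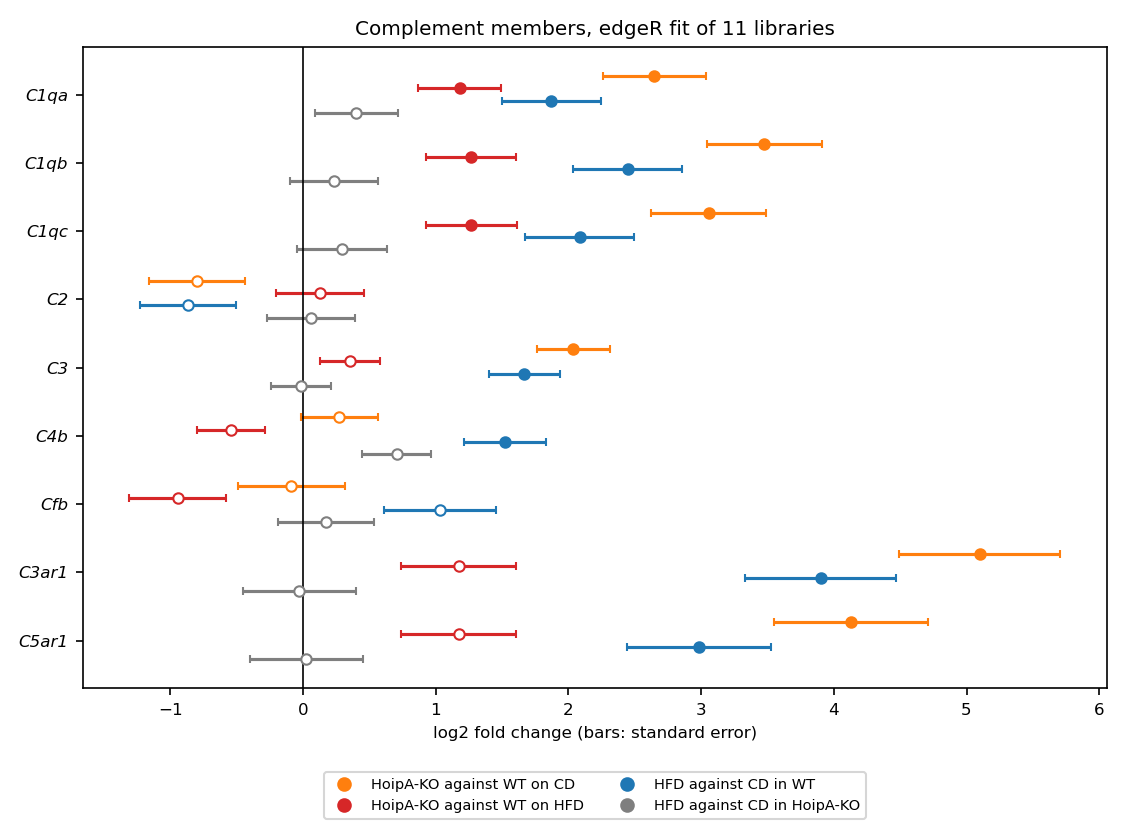
Log2 fold changes of the 9 members with their SE in the comparisons of genotype and diet, from edgeR on 11 libraries. Filled points passed an adjusted p of 0.05 and open points did not. C3ar1 had the largest value, 5.10 on CD, the 3 C1q chains were the members filled in the comparison of genotypes on HFD, and every member was open for diet within HoipA-KO.

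Within HoipA-KO, diet changed no member past the threshold: edgeR called 0% of genes higher and 0% lower on HFD, 415 of 18427 genes and 1 member (C4b) had an unadjusted p under 0.05, and DESeq2 called 7 genes and 0 members. The test of the difference between diets in the effect of genotype called 4 members, all with a smaller effect on HFD: C3ar1 (-3.93, SE 0.68, edgeR adjusted p = 0.0256), C3 (-1.68, SE 0.35, adjusted p = 0.034), C5ar1 (-2.96, SE 0.67, adjusted p = 0.0447) and C1qb (-2.21, SE 0.51, adjusted p = 0.0474). Of all genes 3.58% were called in that direction. C1qa (-1.47, adjusted p = 0.112) and C1qc (-1.79, adjusted p = 0.0881) were not. With the replicate number as a block C3ar1 alone was called, and with DESeq2 there were 6 members, C1qa and C1qc added. Leaving out 1 library kept the sign of the 4 called values. C3ar1 stayed at -4.30 to -3.19, C3 at -1.95 to -1.46, C5ar1 at -3.32 to -2.28 and C1qb at -2.52 to -1.70. The calls were less stable, fits that leave 1 WT CD library not counted. They fell to 0 without WT HFD replicate 2, any HoipA-KO CD library, or HoipA-KO HFD replicate 1 or 3. They fell to C3ar1 alone without WT HFD replicate 3 and to C3ar1 and C5ar1 without HoipA-KO HFD replicate 2. Without WT HFD replicate 1 they rose to 6. The median log2 fold change over the 9 members was 2.65 on CD against -0.06 over all genes, 1.17 against 0.06 on HFD, 1.87 against 0.00 for diet in WT, and 0.18 against -0.01 for diet in HoipA-KO.

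Group by group, the libraries of WT CD and WT HFD did not overlap for 8 of the 9 members, all higher in WT HFD, as in 17.7% of 18074 genes tested over 12 libraries. WT CD and HoipA-KO CD did not overlap for 6, and WT CD and HoipA-KO HFD for 7, all higher in HoipA-KO, against 21% and 20.6% of genes. WT HFD and HoipA-KO CD did not overlap for 6, of which 4 were higher in HoipA-KO CD (23.8% of genes) and 2 (C4b and Cfb) lower (23% of genes). For WT HFD and HoipA-KO HFD it was 7, with 5 higher in HoipA-KO HFD (21% of genes) and the same 2 lower (23%). For the diets within HoipA-KO it was C4b alone, higher on HFD, against 3.39% of genes.

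Profiles of log2(CPM + 1) over 12 libraries, centred on their means, were compared between each member and 10361 genes of at least 10 CPM on average. The nearest genes, by mean absolute difference, were Lrrc25 (0.115) and Arhgap9 (0.154) for C1qb, Ly86 (0.152) and Lrrc25 (0.167) for C1qc, and Cd248 (0.136) and Ly86 (0.143) for C1qa. C3ar1 was nearest to Hpgds (0.0923), a prostaglandin D synthase, and Cd180 (0.114), and C5ar1 to Apobec1 (0.108) and Cyth4 (0.14). C3 was nearest to Serping1 (0.121), an inhibitor of the classical proteases, and Rcn3 (0.159). Cfb was nearest to Lbp (0.144), the lipopolysaccharide-binding protein, and Vldlr (0.171), C4b to Lynx1 (0.194) and C1qtnf1 (0.204), and C2 to Paox (0.166) and Ndrg1 (0.188). Among the members themselves the closest pairs were C1qb with C1qc (0.138) and C1qa with C1qc (0.15), and C4b with Cfb differed by 0.304.

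A list of 46 further complement genes set the members in their pathway, and 38 of these passed the filter. On CD, 15 of the 38 were called higher in HoipA-KO and 6 lower, on HFD 5 higher and 5 lower, and for diet in WT 11 higher and 3 lower. Of all genes tested, 18.9% were called higher and 18.8% lower on CD, 4.2% and 7.62% on HFD, and 9.35% and 5.47% for diet in WT. With 12 libraries 37 of the list were tested, with 14 higher and 7 lower on CD, 3 higher and 4 lower on HFD, and 12 higher and 3 lower for diet in WT. The shares of all genes were then 16.3% and 18.3% on CD, 0.598% and 2.3% on HFD, and 9.17% and 6.02% for diet in WT. For diet in HoipA-KO edgeR called 0 of the 38. In the plot of pathway genes by role, the receptors and classical proteases that were called lay to the right and the membrane inhibitors that were called to the left.

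The classical proteases that dock on C1q were higher in HoipA-KO on CD, where edgeR called all 3 tested. For diet in WT, where the C1q chains rose, edgeR called 0 of the 3 (C1ra 0.87, adjusted p = 0.08, and 0.0394 with 12 libraries). C1ra was higher in HoipA-KO by 1.51 on CD (edgeR adjusted p = 0.0052) and 0.97 on HFD (adjusted p = 0.0452, 0.0785 with 12 libraries), and C1s1 by 0.96 on CD (adjusted p = 0.044). On HFD, C1s1 was at 0.43 (adjusted p = 0.329) and C1s2 at 1.36 (adjusted p = 0.0818). C1s2 was also called on CD (1.75, adjusted p = 0.0348) at only 0.14 to 1.86 CPM, and the call was lost with 12 libraries (adjusted p = 0.249). The C1s1 call was lost in 10 of the 11 fits that left out 1 library, and that of C1s2 in 7. In the lectin pathway the ficolin Fcna was the 1 of 5 tested genes called on CD (1.51), and on HFD edgeR called 0 of the 5.

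In the alternative pathway the members' partners moved apart. Cfd (adipsin), which cleaves factor B, was at 8734, 4177 and 2321 CPM in WT CD, 1106, 866 and 349 CPM in WT HFD, 95.1, 21.8 and 102 CPM in HoipA-KO CD, and 37.9, 10.1 and 26.7 CPM in HoipA-KO HFD. It fell by 6.47 in HoipA-KO on CD (SE 0.86, edgeR adjusted p = 0.000726), by 4.96 on HFD (adjusted p = 0.01) and by 3.06 with HFD in WT (adjusted p = 0.0277). Properdin (Cfp), made by myeloid cells, which stabilizes the convertase, rose by 2.99 on CD (adjusted p = 0.000452), and on HFD the value was 1.48 (adjusted p = 0.00999). C3 minus Cfd on the log2 scale was -3.42 on CD and 0.91 on HFD in WT, and 4.80 on CD and 6.27 on HFD in HoipA-KO. In CPM, Cfd thus exceeded C3 in every WT CD library and C3 exceeded Cfd in every other library. The order in WT HFD depends on transcript length. Per kilobase of transcript, Cfd was at 379 to 1200 CPM there and C3 at 222 to 281 CPM. Cfd is an adipocyte transcript, and the adipocyte list was also lower in HoipA-KO, with a median of -1.79 on CD and -2.03 on HFD. For diet in WT, where Cfd fell too, edgeR called 0 of the 8 adipocyte genes lower (median -0.32). The part of adipocyte content in the fall of Cfd was not tested.

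**Figure D4:**
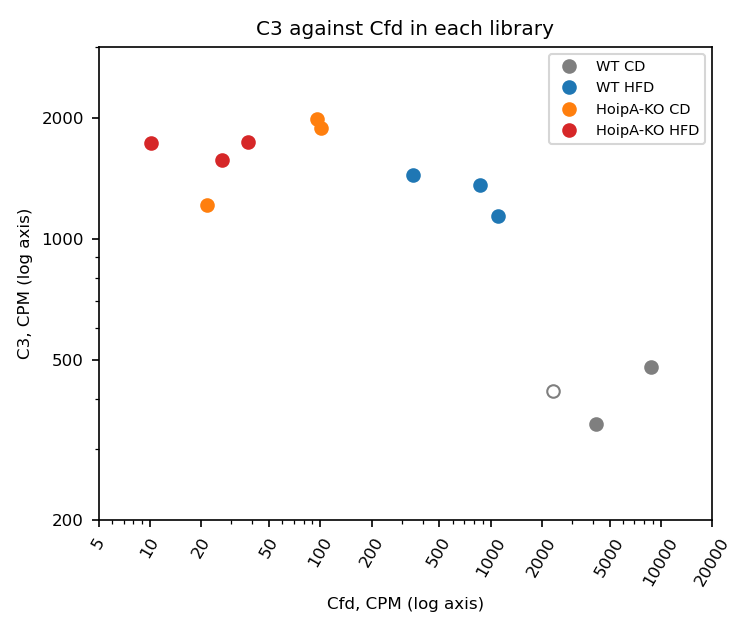
Level of C3 against that of Cfd (adipsin), both in CPM on log axes, in 12 libraries by group. Points are libraries and the hollow point is WT CD replicate 3. WT CD libraries had Cfd at 2321 to 8734 CPM with C3 at 346 to 482 CPM, and HoipA-KO HFD libraries had Cfd at 10.1 to 37.9 CPM with C3 at 1568 to 1745 CPM.

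Downstream of C3, Hc (C5), the source of the ligand of C5ar1, was at 0, 0.149 and 0.732 CPM in WT CD, 0.559, 1.04 and 2.52 CPM in WT HFD, 8.82, 9.58 and 5.66 CPM in HoipA-KO CD, and 11.7, 23.0 and 13.0 CPM in HoipA-KO HFD. It was called higher in HoipA-KO on CD (edgeR adjusted p = 0.00134) and on HFD (3.52, adjusted p = 0.0172, 0.0886 with 12 libraries). The WT CD counts were near 0, and no fold is given for CD. C7, a membrane attack complex component, was higher by 1.80 on CD (adjusted p = 0.00354), and the HFD value was 1.60 (adjusted p = 0.0144). C6 of the same complex was lower on CD (-3.41, adjusted p = 0.000591), as it was on HFD (-1.48, adjusted p = 0.0377, 0.076 with 12 libraries). C8g was lower on CD (-2.22, adjusted p = 0.0112) at a low and uneven level. It was at 1.84, 5.27 and 8.16 CPM in WT CD and 0.76, 0.53 and 1.00 CPM in HoipA-KO CD. With 1 library left out its value was -2.79 to -1.26.

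Of the fluid-phase inhibitors, Serping1 rose by 1.84 on CD (edgeR adjusted p = 0.000761). Cpn1, a carboxypeptidase that inactivates anaphylatoxins, was called lower on CD (-7.05, adjusted p = 0.0144), but this rests on WT CD replicate 2 at 77.8 CPM, and without it the value was 2.56 (adjusted p = 0.197). On HFD edgeR called 0 of the 7 fluid-phase inhibitors. Of the membrane inhibitors, Cd59a and Cd59b, which block the membrane attack complex, were lower in HoipA-KO on CD (-1.23 and -2.26) and on HFD (-1.55 and -1.70). The decay-accelerating factor Cd55 was lower on HFD (-0.90, adjusted p = 0.0138) and not called on CD (-0.19, adjusted p = 0.419).

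Among the other receptors, 6 of 8 were called higher on CD, as were C3ar1 and C5ar1. The integrin chains of complement receptors 3 and 4 had the largest differences, with Itgax at 6.44 (edgeR adjusted p = 0.000493), Itgb2 at 6.01 (adjusted p = 0.000625) and Itgam at 5.13 (adjusted p = 0.000789). The second C5a receptor C5ar2 rose by 3.86 (adjusted p = 0.000959), the C3b receptor of resident macrophages Vsig4 by 2.26 (adjusted p = 0.00266) and Cd93 by 1.86 (adjusted p = 0.00388). On HFD only Vsig4 was called, at 1.51 (adjusted p = 0.0248), against 1.35 for Itgax (adjusted p = 0.0952) and 1.34 for C5ar2 (adjusted p = 0.065).

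**Figure D5:**
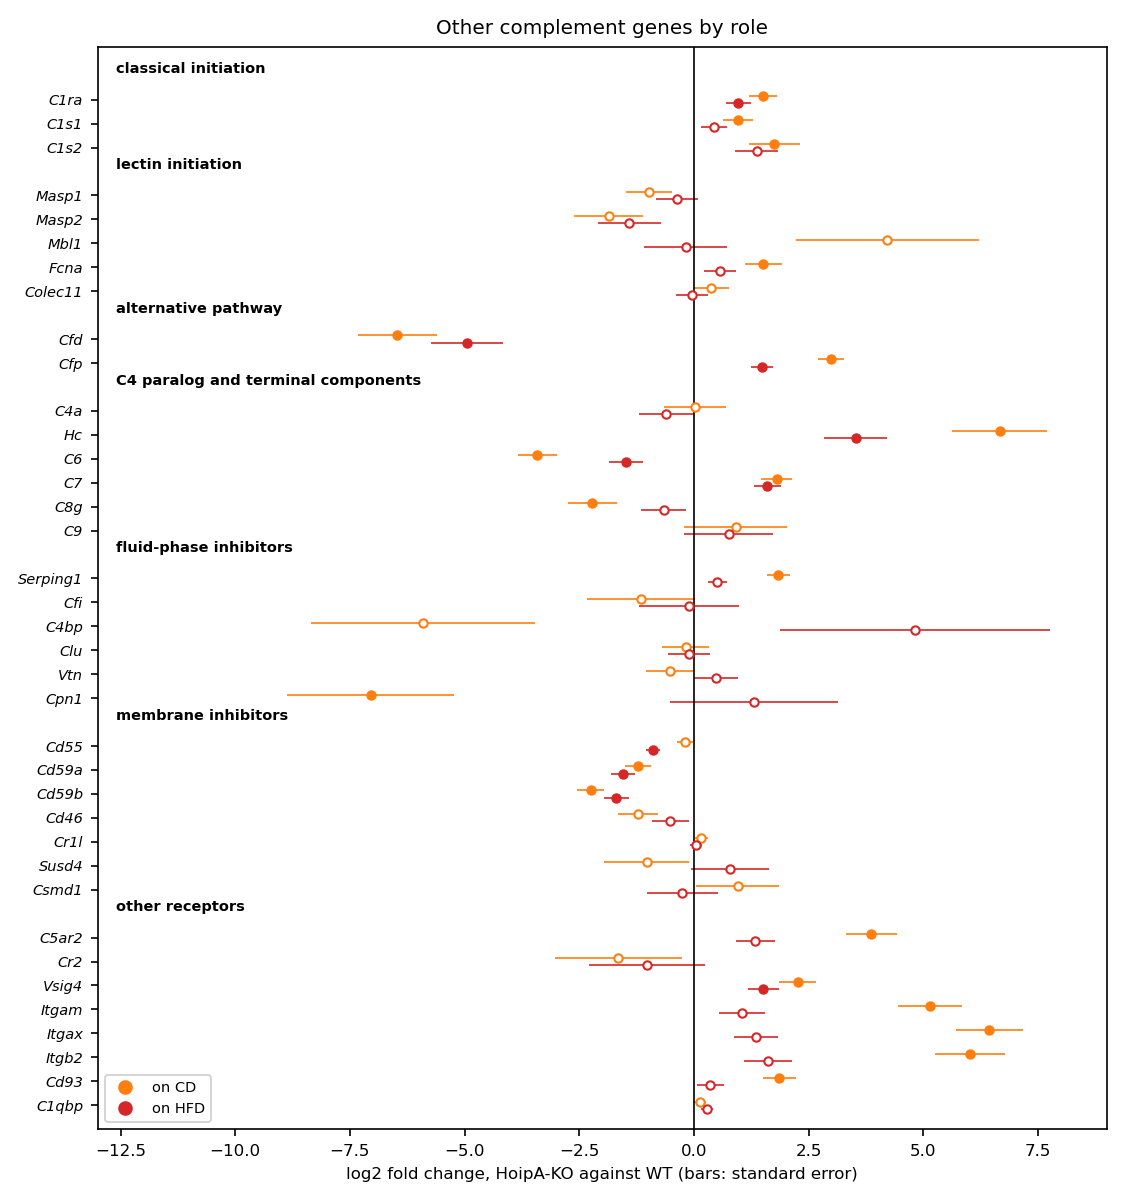
Log2 fold changes (HoipA-KO against WT, on CD and on HFD) of complement genes of the pathway list grouped by role, from edgeR on 11 libraries. Filled points passed an adjusted p of 0.05 and open points did not. Cfd lay far to the left on both diets (-6.47 and -4.96), and Itgax, Itgb2 and Itgam lay at 5.13 to 6.44 on CD.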

How the data were processed

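Polyadenylated RNA of male mouse GWAT was sequenced in 12 libraries, each a pool of 3 mice, with a stranded kit and spike-in controls. The deposited table holds estimated counts per gene, made by the authors with Trim Galore 0.6.7, STAR 2.7.10a and Salmon 1.5.2 per the submitters' processing notes, which name GRCm38. The study's methods name a human build, but the identifiers are those of mouse genes, and 93.97% of the 55281 were in GENCODE M21 (GRCm38), which gave the coordinates. A second table with protein-coding genes held the same values. Tables of the authors' DESeq2 1.38.1 comparisons (fold changes, p-values and mean levels) were not used.

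The 9 members, the pathway and marker lists and the tests were chosen with earlier results of these data known. Expected counts were rounded and tested in R 4.3.3 with edgeR 4.0.16 (quasi-likelihood, default filter on low counts, trimmed-mean scaling, prior count 0.125 for fold changes, group means model over 4 groups). WT CD replicate 3 was left out of the fit and kept in the levels. The common biological coefficient of variation was 0.394 with 11 libraries and 0.514 with 12. A count of 3 corresponded to 0.0534 to 0.0987 CPM per library, and the lowest count of any member was 435 (C5ar1 in WT CD replicate 3). DESeq2 1.42.0 was an alternative, and the closing section gives the others. The script was tested on simulated data. A gene of the pathway list is included in the counts but is not reported here by name. Deviations of same-numbered libraries from their group means correlated at -0.373 to 0.515 over all groups, against -0.525 to 0.434 for other pairs. These ranges overlap, but deviations within such small groups are not independent of each other. Pairing by replicate number across the 4 groups is therefore neither shown nor excluded. Between HoipA-KO CD and HoipA-KO HFD the same-numbered libraries correlated at 0.155, 0.515 and 0.285, and that comparison may be paired. The replicate block left its count at 0.

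Genes were named mainly from these sets, not all of which are named. The sets were the 9 members, the pathway genes called on either diet or among the 4 most abundant of their role, and the marker genes. The last set was the 2 genes of at least 10 CPM with the profile nearest to each member. A few genes outside these sets, such as C4a and C8b, are named where their values are given. The marker lists not described above were also counted on CD: in HoipA-KO, 5 of 6 lipid-associated macrophage genes, 2 of 7 monocyte and neutrophil genes, 5 of 6 mast cell genes and 3 of 6 stem and progenitor genes were called higher with 0 lower. Of the mesothelial list edgeR called 0 of 5, and 2 of 4 endothelial, 1 of 5 hepatocyte and 1 of 5 epididymal epithelium genes were called lower. Beside these counts, 18.9% of all genes tested were called higher and 18.8% lower on CD.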

Additional observations from a re-analysis of the deposited data

Results flagged for a closer look

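The effect of genotype differed between the diets, by edgeR's test of the interaction on 11 libraries, for 4 members and 5 other complement genes, in each case with a smaller difference between HoipA-KO and WT on HFD than on CD. The values were -2.21 for C1qb (adjusted p = 0.0474), -1.68 for C3 (adjusted p = 0.034), -3.93 for C3ar1 (adjusted p = 0.0256) and -2.96 for C5ar1 (adjusted p = 0.0447). Among the other receptors they were -4.09 for Itgam (adjusted p = 0.0287), -5.09 for Itgax (adjusted p = 0.0256) and -4.40 for Itgb2 (adjusted p = 0.0284). They were -1.50 for Cfp (adjusted p = 0.0477) and -1.33 for Serping1 (adjusted p = 0.0485). All 9 were also called with 12 libraries. The 4 members kept a negative value in every fit that left out 1 library. The WT CD side of this test rests on replicates 1 and 2, whose log2 CPM correlated at 0.907. The 9 calls were less stable, fits that leave 1 WT CD library not counted. No member was called without WT HFD replicate 2, any HoipA-KO CD library, or HoipA-KO HFD replicate 1 or 3. In those fits only 1 to 4 of all genes tested were called in this direction, against 660 with 11 libraries. The WT HFD libraries already held more of these RNAs than WT CD, and HoipA-KO did not differ by diet past the threshold for any of them. Groups held 3 libraries, too few for a test of a single library that stands apart.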

How the results depend on the processing

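On CD, the same 6 members were called higher in HoipA-KO under every alternative run, and C2 was called lower without WT CD replicate 2 (6 to 7 members with 1 library left out), and for diet within HoipA-KO edgeR called 0. Of 371 alternative values of single members, those with 1 library left out not counted, 369 kept their direction, and the exceptions were Cfb on CD with 12 libraries (0.17) and with scaling by library size (0.013). The count of members called on HFD (3) was 0 with 12 libraries or at an adjusted p under 0.01 and 6 with DESeq2, and with only 2 groups fitted C1qa was higher and Cfb lower, without C1qb and C1qc. For diet in WT (7) it was 0 by edgeR when only those 2 groups were fitted (7 members and 4666 genes at an unadjusted p under 0.05) and 4 at the stricter threshold. For HoipA-KO CD against WT HFD (1) it was 2 with a minimum of 10 counts or only 2 groups, 7 with DESeq2, 0 at the stricter threshold and 4 with the replicate block (C1qb and C1qc higher, C4b and Cfb lower). The interaction count (4) was 2 without a filter, 1 with the block, 0 at the stricter threshold, 3 with protein-coding genes only and 6 with DESeq2. The block changed no other count of members. Counts over all genes shifted too. DESeq2 called 2216 genes higher and 2239 lower on HFD (edgeR 774 and 1405). For HoipA-KO CD against WT HFD it called 2459 and 2497 (edgeR 1249 and 1671), and for the interaction 905 and 1469 (edgeR 61 and 660). At the stricter threshold edgeR called 23 higher and 162 lower on HFD, and 603 and 57 for diet in WT. It called 19 and 110 for HoipA-KO CD against WT HFD and 0 and 2 for the interaction. The cause of these shifts was not tested. Leaving out 1 library gave 0 to 5 members on HFD, 3 to 8 for diet in WT, 0 to 6 for HoipA-KO CD against WT HFD and 0 to 8 for the interaction. Signs turned for C4b on CD (-0.12 to 0.82), Cfb on CD (-0.63 to 0.80), C2 on HFD (-0.10 to 0.28) and Cpn1 on CD (-8.30 to 2.56). Of the pathway calls on HFD, leaving out 1 library of 11 lost C1ra in 7 fits, C6 in 6, Vsig4 in 5, Hc in 4, C7 and Cd55 in 3 each and Cd59a in 2, and on CD Fcna in 2 (WT CD replicate 1 or 2), C8g without WT CD replicate 2 and Cd59a without WT CD replicate 1. With 12 libraries on HFD the classical list went from 1 to 0 calls and the terminal list from 3 to 1. C2 in HoipA-KO HFD was 86.7 CPM by library size against 82.7. The median log2 difference of all genes was -0.17 on CD with 12 libraries (-0.06 with 11) and 0.15 on HFD with library size (0.06 with trimmed-mean scaling).

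A group of 3 libraries limits what can be called: a difference on HFD that missed the threshold is not shown to be absent. Whole tissue mixes cell types, and transcript levels do not give complement protein or activity.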

Other observations

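Several complement genes outside the members were high in single WT CD libraries. C4bp, an inhibitor of the classical convertase, stood at 379.9 CPM in WT CD replicate 2. In WT CD replicate 3, Cd55b reached 106 CPM, C8b 8.84 CPM and the inhibitor clusterin (Clu) 567 CPM. The summed level of epididymal epithelium markers was 14698 CPM in WT CD replicate 2 and 1285 CPM in HoipA-KO HFD replicate 1, and its part in these values was not tested. The hepatocyte list summed to at most 41.4 CPM in any library.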
